A study of Mus musculus with 5 samples.

Results

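Interferon-stimulated genes are described here in lung cells of *Ms4a3-CreER;R26-tdT* mice after bleomycin. They are a list of 41 genes chosen by symbol, of which 40 have 1 row each in the feature list of 28692 mouse genes, and Mx2 was not analysed here. The list was drawn up with the summed levels of these genes by cell class and library in view, so those levels are a description and carry no test. All 40 had UMIs in the kept cells of each library.

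The study profiled immune cells of the lung by droplet scRNA-seq (10X Genomics 3′ v3.1) in 5 libraries, 1 from PBS-treated mice (sham) and 1 each from mice 3, 7, 14 and 28 days after intratracheal bleomycin, a DNA-damaging drug that injures and scars the lung. Mice of all 5 groups carried the same alleles, a tamoxifen-inducible Cre driven by *Ms4a3*, which is active in the progenitors of monocytes and granulocytes, and the Cre-dependent tdT reporter, on a mixed C57BL6/129 background. Adult mice of both sexes, from 7 weeks of age, were used, and the age, the sex and the number of mice behind each library are not given in the sources used here. With 1 library per time point, differences between times have no replicate check, and every interval below is a 95% interval that covers counting error only.

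Interferons are secreted proteins that bind receptors on the cell surface and activate kinases there, which for type I and type III interferons are JAK1 and TYK2. Type I and type III interferons act through a complex that holds STAT2 and IRF9 and binds an element in the promoters of target genes. The induced genes encode further transcription factors, sensors of foreign RNA, enzymes and binding proteins that block viral RNA, the ubiquitin-like protein ISG15 with its enzymes, membrane proteins that hinder viral entry or release, and large GTPases that attack the vacuoles of intracellular microbes. In the lung, alveolar macrophages (AMs), plasmacytoid dendritic cells (pDCs) and epithelial cells are known sources of type I and type III interferons.

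The 40 genes fall into 7 roles, namely 3 transcription factors, 4 RNA sensors, 5 genes of the OAS family, 3 of the IFIT family, 3 of the ISG15 system, 15 other antiviral effectors with a row, and 7 interferon-inducible GTPases. Relatives lie side by side in the genome (GENCODE annotation, GRCm38). Ifit2, Ifit3 and Ifit1 follow each other on chr19:34550694-34650009, Oas2, Oas3 and Oas1a on chr5:120730333-120907521, and Gbp7, Gbp3 and Gbp2 on chr3:142530342-142638008. Counts of near-identical copies are uncertain, because reads can be split or lost between Oas1a and the other Oas1 genes, Ifit3 and Ifit3b, Ifit1 and Ifit1bl1, Irgm1 and Irgm2, Trim30a and Trim30d, and among the Gbp genes.

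The promoters of these genes can be read against the element that this complex binds. The letters GAAA, then 2 bases of any kind, then GAAA, or TTTC, 2 bases and TTTC for the other strand, were searched in the 250 bases before each RefSeq transcription start (GRCm38.p6), with overlapping matches allowed. Of 31 listed genes with a promoter entry, 15 (48.4%) held the motif, against 921 of 26994 other genes (3.41%) and 936 of all 27025 genes (3.46%). The 23 matches in these 15 promoters began 14 to 222 bases before the start, with a median of 72. By role, the motif was found in 5 of 6 GTPase promoters, 2 of 3 IFIT, 2 of 4 OAS, 1 of 2 ISG15 system, 4 of 11 effector, 1 of 3 transcription factor and 0 of 2 RNA sensor promoters. Of the genes named in full below by their day 3 ratio in AMs, at most 5 per role, 12 held the motif. Bst2, whose values are given below for its high level, held the motif too but was outside this choice. The 8 of the 12 with the largest day 3 ratios in AMs are printed here. Each runs 5′ to 3′ on the gene's strand without bases of annotated exons, and capitals mark the matched letters. A match is a description and not a shown binding site. The Slfn5 stretch lies before its RefSeq start but inside the gene as annotated by GENCODE, which begins at chr11:82951349.

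Ifit3, chr19:34583279-34583528 (plus strand): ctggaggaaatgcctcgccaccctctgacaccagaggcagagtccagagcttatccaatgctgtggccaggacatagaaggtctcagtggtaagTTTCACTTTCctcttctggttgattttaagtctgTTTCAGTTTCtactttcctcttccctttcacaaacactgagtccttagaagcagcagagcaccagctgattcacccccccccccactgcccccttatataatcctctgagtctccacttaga
Oas3, chr5:120777662-120777795 (minus strand): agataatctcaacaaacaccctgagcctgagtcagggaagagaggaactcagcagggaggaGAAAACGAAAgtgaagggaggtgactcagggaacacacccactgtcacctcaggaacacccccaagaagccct
Rsad2, chr12:26456453-26456702 (minus strand): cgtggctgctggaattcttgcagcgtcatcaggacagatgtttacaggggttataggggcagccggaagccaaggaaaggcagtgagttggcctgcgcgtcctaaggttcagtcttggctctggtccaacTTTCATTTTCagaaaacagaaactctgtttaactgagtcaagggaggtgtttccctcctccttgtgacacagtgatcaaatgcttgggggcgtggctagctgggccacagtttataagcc
Ifit1, chr19:34640744-34640870 (plus strand): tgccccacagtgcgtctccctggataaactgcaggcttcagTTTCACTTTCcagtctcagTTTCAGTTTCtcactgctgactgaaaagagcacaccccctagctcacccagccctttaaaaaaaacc
Slfn5, chr11:82951852-82951984 (plus strand): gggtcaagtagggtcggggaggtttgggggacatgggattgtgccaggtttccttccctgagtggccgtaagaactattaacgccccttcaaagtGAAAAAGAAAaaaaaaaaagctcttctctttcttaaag
Isg15, chr4:156200819-156201068 (minus strand): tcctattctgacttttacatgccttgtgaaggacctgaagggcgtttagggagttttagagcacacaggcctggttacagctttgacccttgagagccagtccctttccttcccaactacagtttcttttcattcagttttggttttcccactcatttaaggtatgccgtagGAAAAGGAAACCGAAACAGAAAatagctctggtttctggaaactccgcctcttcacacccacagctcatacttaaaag
Oas1a, chr5:120907526-120907775 (minus strand): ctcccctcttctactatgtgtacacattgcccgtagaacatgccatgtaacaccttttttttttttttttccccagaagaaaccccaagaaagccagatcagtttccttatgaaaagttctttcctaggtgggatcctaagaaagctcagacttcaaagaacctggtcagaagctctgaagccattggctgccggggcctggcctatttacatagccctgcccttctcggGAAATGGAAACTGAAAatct
Gbp3, chr3:142559794-142560025 (plus strand): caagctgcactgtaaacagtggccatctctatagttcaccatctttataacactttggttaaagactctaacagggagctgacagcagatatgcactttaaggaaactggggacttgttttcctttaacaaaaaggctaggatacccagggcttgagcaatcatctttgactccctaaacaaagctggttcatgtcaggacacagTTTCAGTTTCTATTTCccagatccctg

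The motif did not separate the genes by size of change. In AMs on day 3, the 15 genes with it had a median log2 ratio to sham of 3.51, and the 16 promoters without it a median of 4.07.

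A barcode was kept when it had 300 to 8000 genes, 800 to 60000 UMIs and a mitochondrial share under 15%, which left 7757 to 10280 cells per library from 8971 to 12688 barcodes and 89769386 to 167506186 UMIs. Each cell was placed in a class by fixed marker genes, and the UMIs of a class were summed per library and scaled to the total of the class as CPM. The day 7 library holds exactly 10000 barcodes and none under 4624 UMIs, whereas the lowest count elsewhere is 500 to 502, and pairs of libraries share 22 to 41 barcodes. Although the labels say immune cells, the gates also found epithelial cells, endothelial cells and fibroblasts. In the AM gate all 9 AM markers were detected in every library. In the classical monocyte gate on day 7, interstitial macrophage markers summed to 3796 CPM against 3413 for the gate's own markers, and on day 28 its own markers were only 1.01 times those of AMs, so those late cells go against their name.

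Over all kept cells, the share of UMIs taken by these genes was 0.0858% in sham, 1.57% on day 3, 0.238% on day 7, 0.135% on day 14 and 0.108% on day 28. Day 3 thus stood apart from the other 4 libraries. Because the makeup of the cells also changed between libraries, the genes are followed within cell classes below.

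AMs, the resident phagocytes of the air spaces, were caught in each library, with 5715 cells in sham, 648 on day 3, 1609 on day 7, 1308 on day 14 and 2762 on day 28. Their summed level of the 40 genes was 508 CPM in sham (503 to 512), 5589 on day 3 (5544 to 5635), 1206 on day 7 (1193 to 1219), 809.5 on day 14 (799.9 to 819) and 876 on day 28 (868 to 883). The day 3 level was 11.01 times that of sham, with a log2 ratio of 3.46 (3.44 to 3.48). The later libraries lay between these 2, and in none did the summed level go back to that of sham. The sum is weighted to abundant genes, and Ly6e made up most of the excess over sham on day 7 and day 28. Oas1a, Ifitm3, Igtp and Ifi35 were among the genes below sham on day 14 and day 28.

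A gene was compared where it reached 20 CPM in at least 1 of the libraries, and was counted as higher at 2-fold or more. On day 3, 39 of 39 compared genes were at least 2-fold higher in AMs, and 0 were lower. Among all 6175 genes compared, 4.58% passed 2-fold upward and 3.08% downward. The median log2 ratio was 3.82 over the 39 genes and -0.12 over all genes, and the range over the 39 was 1.18 (Gbp7) to 8.29 (Ifit3). Iigp1, a GTPase, was the gene left out for its level, with 0.194 CPM in sham and 12.2 on day 3. Of the 39, 32 passed the minimum only through their day 3 level and so had to be higher there.

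**Figure D1:**
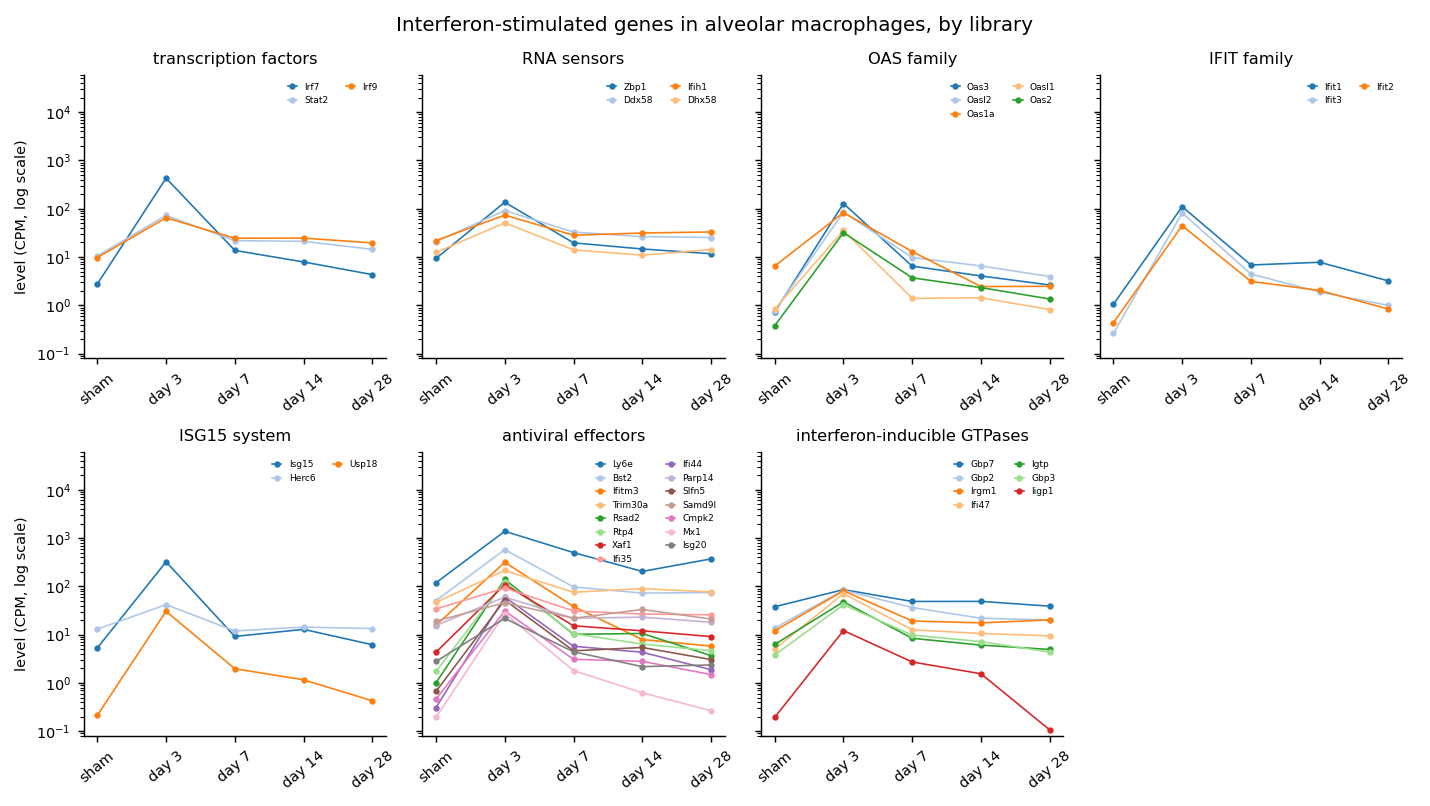
Level of each interferon-stimulated gene in AMs (CPM, log axis) in the 5 libraries, 1 panel per role and 1 line per gene. All 40 lines peak on day 3 and the day 7, day 14 and day 28 points lie lower, with Ly6e the highest line at 1383 CPM.

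The transcription factors were led by Irf7, which amplifies the response by inducing further interferon genes. Irf7 stood at 2.76 CPM in sham, 429 on day 3, 13.7 on day 7, 7.90 on day 14 and 4.32 on day 28. Its day 3 level was 155 times that of sham (138 to 176), and each later library was lower than the one before. Stat2, a subunit of the complex that binds the promoter element, had 10.5, 72.7, 21.8, 21.1 and 14.4 CPM in the same order, which is 6.89-fold on day 3 (6.27 to 7.57). Irf9, the subunit that contacts DNA, had 9.73, 64.9, 24.5, 24.6 and 19.6 CPM, or 6.67-fold on day 3 (6.04 to 7.36). Both subunits were measurable in sham, and on day 28 Irf9 was still 2.01 times its sham level.

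The RNA sensors were already measurable in sham and had smaller ratios than Irf7. Zbp1, a sensor of Z-form nucleic acid, had 9.38 CPM in sham, 136 on day 3, 19.6 on day 7, 14.7 on day 14 and 11.7 on day 28, a 14.5-fold difference on day 3 (13.4 to 15.8). Ddx58, which encodes the RNA helicase RIG-I, had 20.7, 91.6, 32.9, 26.4 and 25.3 CPM, or 4.42-fold (4.09 to 4.77). Dhx58, a regulator of these helicases, had 12.4, 51.0, 14.1, 10.9 and 14.3 CPM, or 4.10-fold (3.70 to 4.54). Ifih1 encodes the helicase MDA5 and was at 21.9, 73.8, 28.3, 31.4 and 33.0 CPM, or 3.37-fold (3.098 to 3.66). Ifih1 had its second highest level on day 28 and not on day 7.

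The OAS family, which senses double-stranded RNA and in its active members makes the messenger that switches on RNase L, was low in sham. Oas3 went from 0.726 CPM in sham to 128 on day 3, 6.46 on day 7, 4.06 on day 14 and 2.63 on day 28, a 176-fold difference on day 3 (139.8 to 226). Oasl2 had 0.775, 84.3, 9.76, 6.53 and 3.95 CPM, or 109-fold (86.5 to 139). Oas2 had 0.378, 31.9, 3.71, 2.33 and 1.35 CPM, or 84.6-fold (60.6 to 121). These 3 were above sham in each bleomycin library. Oasl1, which restrains translation of Irf7, had 0.833, 35.4, 1.39, 1.43 and 0.818 CPM, or 42.5-fold on day 3 (33.5 to 54.4), and on day 28 lay at its sham level. Oas1a had 6.49, 83.1, 12.96, 2.45 and 2.47 CPM, or 12.8-fold (11.6 to 14.2), and was below sham on day 14 and day 28.

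Among the IFIT genes, whose proteins bind foreign RNA and block its translation, was the largest ratio of the list. Ifit3 rested on 27 UMIs in sham and 846 on day 3, with 0.261 CPM in sham, 81.6 on day 3, 4.46 on day 7, 1.88 on day 14 and 0.996 on day 28, and its day 3 ratio was 312 (213 to 477). Ifit1 had 1.05, 110.3, 6.84, 7.79 and 3.20 CPM, or 105-fold (86.5 to 129.7). Ifit2 had 0.436, 44.6, 3.13, 2.03 and 0.836 CPM, or 102-fold (75.2 to 142). For each of the 3 genes, sham was the lowest of the 5 libraries and day 3 the highest.

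The ISG15 system divided into genes with large and small ratios. Isg15, the ubiquitin-like modifier, had 5.31 CPM in sham, 322 on day 3, 9.18 on day 7, 12.9 on day 14 and 6.19 on day 28, a 60.7-fold difference on day 3 (55.5 to 66.6). Usp18, which removes ISG15 and dampens the type I receptor, had 0.213, 30.5, 1.97, 1.16 and 0.427 CPM, or 143-fold (92.9 to 232). Herc6, the mouse ligase for ISG15, had 13.01, 41.9, 11.9, 14.3 and 13.4 CPM, or only 3.22-fold (2.88 to 3.59). Herc6 was the most abundant of the 3 in sham and differed little from sham after day 3.

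Of the antiviral effectors, Ifi44 had the largest ratio, with 0.310 CPM in sham, 60.4 on day 3, 5.75 on day 7, 4.33 on day 14 and 1.88 on day 28, or 195-fold on day 3 (137 to 287). Mx1, a GTPase that blocks influenza viruses in the nucleus, had 0.194, 27.4, 1.80, 0.626 and 0.267 CPM, or 141-fold (89.9 to 235). Rsad2 encodes viperin, an enzyme that makes a chain-terminating nucleotide, and had 1.01, 139.7, 10.2, 10.6 and 3.68 CPM, or 139-fold (114 to 171). Slfn5, of the schlafen family, had 0.668, 52.0, 4.63, 5.43 and 3.06 CPM, or 77.8-fold (60.5 to 102). Rtp4, a chaperone of membrane receptors, had 1.73, 126, 10.5, 6.38 and 4.66 CPM, or 72.5-fold (62.0 to 85.3). On day 28 Mx1 was 1.38 times its sham level, from few UMIs, and the other 4 were 2.69 to 6.08 times theirs.

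The other 10 effectors had day 3 log2 ratios from 1.26 (Samd9l) to 6.06 (Cmpk2). The 3 most abundant on day 3, which were picked out after their values were seen, were Ly6e, Bst2 and Ifitm3. Ly6e, a membrane protein that affects viral entry, had 119 CPM in sham, 1383 on day 3, 500.2 on day 7, 204 on day 14 and 371 on day 28, an 11.7-fold difference on day 3 (11.4 to 11.9). Bst2, the tetherin that holds budding virions at the surface, had 50.7, 577, 97.2, 72.6 and 74.3 CPM, or 11.4-fold (10.97 to 11.8). Ifitm3, which blocks fusion of viruses in endosomes, had 15.7, 315, 38.3, 7.93 and 5.80 CPM, or 20.1-fold (18.9 to 21.3). Ifitm3 ended below its sham level on day 14 and day 28, whereas Ly6e stayed above it throughout.

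The GTPases of the GBP and IRG families, which are known as strong targets of interferon gamma, had smaller ratios than the IFIT genes and most OAS genes. Ifi47 had 5.03 CPM in sham, 70.8 on day 3, 12.6 on day 7, 10.6 on day 14 and 9.46 on day 28, a 14.1-fold difference (12.6 to 15.8). Gbp3 had 3.80, 41.5, 9.80, 7.19 and 4.36 CPM, or 10.9-fold (9.51 to 12.6). Igtp, also called Irgm3, had 6.27, 47.9, 8.40, 6.09 and 4.94 CPM, or 7.64-fold (6.78 to 8.60). Of these, Igtp alone was below sham on day 14 and day 28. Irgm1, which controls other GTPases of its family, had 12, 81.0, 19.2, 17.5 and 20.2 CPM, or 6.75-fold (6.17 to 7.37). Gbp2 had 13.7, 83.1, 36.5, 21.9 and 20.1 CPM, or 6.05-fold (5.56 to 6.59). Gbp7 had the smallest ratio of the 39 genes, 2.26 (2.10 to 2.44), and was already at 37.8 CPM in sham.

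After day 3 few of these genes passed 2-fold in AMs, since most lay under 20 CPM in both libraries. On day 7, 5 of 13 compared genes were at least 2-fold higher than in sham, against 1.98% of all genes, and they were Irf9, Stat2, Ifitm3, Ly6e and Gbp2. On day 14 there were 2 of 12, Irf9 and Stat2, against 3.13% of all genes, with Stat2 on the limit at 2.00-fold. On day 28 there was 1 of 10, Ly6e, against 3.27%. Of the genes named here, only Ly6e was at 20 CPM or more in sham. Irf9, Stat2, Ifitm3 and Gbp2 reached 20 CPM only through the later library and so had to be higher there. When no minimum level was asked, the counts were 24, 20 and 14 of 40 genes, against 18.1%, 12.1% and 14.3% of all genes. Of the 39 genes that reached 20 CPM, day 3 was the highest library for 39, the next highest was day 7 for 24, day 14 for 11, day 28 for 3 and sham for 1, and sham was the lowest for 31.

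Markers of other cells in the AM gate moved over the same libraries. Summed interstitial macrophage markers were 54.3 CPM in sham, 254 on day 3, 524 on day 7, 775 on day 14 and 706 on day 28, and summed AM markers went from 20263 CPM in sham to 16449 on day 3 and 13552 to 15425 later. The neutrophil marker S100a8 in AMs was 0.234% to 0.486% of its level in neutrophils in each library, whereas the summed interferon-stimulated genes in AMs were 15.2% of the neutrophil level in sham and 17.7% on day 3. The part of these cells in the levels of single genes was not tested further.

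Per cell, the genes were spread over most AMs of day 3. Each cell was thinned to 2000 UMIs, and 172 AMs in all 5 libraries were too shallow and left out. The median AM had UMIs of 5 of the 40 genes on day 3 (quartiles 3 and 8) and of 1 in each of the other libraries. Without thinning, the medians were 6 in sham, 18 on day 3, 7 on day 7, 9 on day 14 and 7 on day 28. AMs with 5 or more of the genes made up 0.359% of sham cells (0.219 to 0.553), 50.4% on day 3 (46.4 to 54.3), 5.16% on day 7, 2.09% on day 14 and 1.71% on day 28. AMs with none of the genes made up 38.4%, 1.56%, 17.96%, 28.3% and 19.97% in the same order.

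For single genes, the share of thinned AMs with a UMI went from 0.484% in sham to 36.2% on day 3 for Irf7, from 1.00% to 24.7% for Isg15, from 0.0538% to 10.95% for Ifit3 and from 20.5% to 77.3% for Ly6e. No class in these data should lack these genes altogether, so free RNA was judged by S100a8 alone. Median UMIs before thinning were 17030.0 per AM in sham and 14609.5 on day 3.

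**Figure D2:**
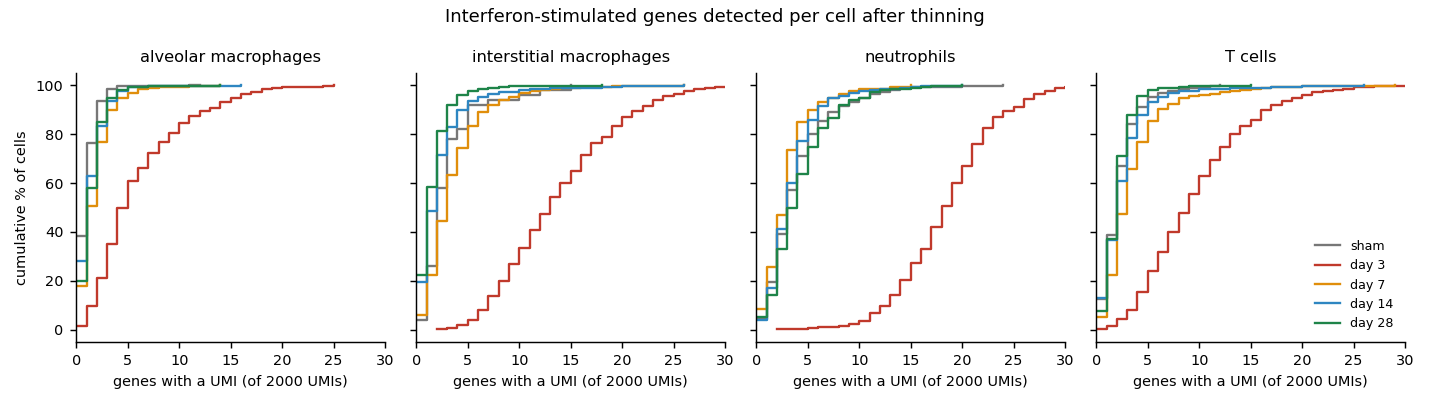
Cumulative share of cells (%) by the number of interferon-stimulated genes with a UMI after thinning to 2000 UMIs, in 4 cell classes, with 1 line per library. The day 3 lines lie to the right of the others, with medians of 5 genes in AMs, 13 in interstitial macrophages, 18 in neutrophils and 9 in T cells.

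In the other 8 classes compared, 7 (classical monocytes) to 29 (B cells) of the genes likewise reached 20 CPM only through day 3 and so had to be higher there. Of the genes that were at 20 CPM or more in sham, those at least 2-fold higher on day 3 were 27 of 27 in neutrophils, 32 of 33 in classical and 21 of 23 in nonclassical monocytes, 24 of 24 in interstitial macrophages, 13 of 13 in mature dendritic cells, 18 of 19 in T cells, 14 of 15 in NK cells and 6 of 8 in B cells. In AMs there were 7 of 7. The share of all genes that passed under this sham minimum was not counted, so these counts have no matched background.

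Neutrophils, short-lived granulocytes that enter the injured lung from blood, held the highest summed level on day 3, although in sham both kinds of monocytes were above them. It was 3344 CPM in sham, 31507 on day 3, 2082 on day 7, 2514 on day 14 and 3289.7 on day 28, from 779 cells on day 3 and 121 to 1139 in the others. Ifitm3 alone made up 3572 CPM of the sham sum in classical and 3463 in nonclassical monocytes. In sham, the IFIT family, OAS family and ISG15 system were higher in neutrophils, at 77.8, 247 and 484 CPM, than in either kind of monocyte. The RNA sensors and other antiviral effectors were lower in neutrophils than in both. On day 3, 38 of 38 compared genes were at least 2-fold higher, against 6.58% of all genes, with a median log2 ratio of 3.42. Day 7 and day 14 lay below sham. The 121 neutrophils of day 7, the library with no barcode under 4624 UMIs, had a median of 7502 UMIs against 2652 in sham, and 28.7% of all genes were at least 2-fold higher in them, so that this gate stands apart. The 3 most abundant genes on day 3 were Ifitm3 at 5877 CPM against 919.8 in sham, Isg15 at 4565 against 459, and Ifit3 at 2858 against 31.8. For Ifit3 the ratio was 89.9 (74.1 to 110.0), for Ifit1 it was 45.7 (38.2 to 55.1), and for Ifi44, with 1 UMI in sham, it was 118 (20.8 to 4714). The median neutrophil of day 3 had UMIs of 18 of the 40 genes after thinning, and 97.4% had 1 or more of Isg15, against 38.9% in sham.

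Classical monocytes, the precursors of recruited macrophages, already had a high level in sham. Their summed level was 6404 CPM in sham (154 cells), 25659 on day 3 (973 cells), 3212 on day 7, 2529.5 on day 14 and 1079.7 on day 28. On day 3, 39 of 40 genes were at least 2-fold higher, against 18.1% of all genes, and the exception was Ifitm3 at a log2 ratio of 0.63. Ifitm3 was their most abundant gene all the same, at 5540 CPM against 3572 in sham, followed by Ly6e at 3715 against 1129.8 and Isg15 at 1976 against 77.7. The largest ratios were those of Iigp1, which had 0 UMIs in sham and was at least 65.8-fold higher against a floor of 3 counts, Rsad2 at 53.3 (38.3 to 76.6) and Ifit2 at 35.4 (22.4 to 59.8). On day 7, 5 of 33 genes were at least 2-fold lower than in sham, against 6.71% of all genes, on day 14, 24 of 33 were, against 5.80%, and on day 28, 28 of 33 were, against 24.9%. All 33 were at 20 CPM or more in sham, so genes under 20 CPM later were compared through sham alone and had to be lower. The gates held 257, 83 and 53 cells, and those of day 7 and day 28 are the ones whose markers go against the name.

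Nonclassical monocytes, which patrol the vessel wall, were compared only on day 3, with 200 cells in sham and 314 on day 3. Their summed level was 6489.9 CPM in sham and 21048 on day 3, and 37 of 39 genes were at least 2-fold higher, against 5.37% of all genes. The exceptions were Irf9 at a log2 ratio of 0.80 and Ly6e at 0.63. Ifitm3 led at 8010.1 CPM against 3463 in sham, ahead of Ly6e at 3158 against 2035 and Irf7 at 2101 against 98.5. By ratio, Ifit3 came first at 81.2 (37.2 to 222), then Usp18 at 57.9 (15.8 to 481) from 2 UMIs in sham and Ifit2 at 48.7 (18.9 to 179.6).

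Interstitial macrophages, which lie in the tissue between air spaces and vessels, had only 54 cells in sham. Their summed level was 2441 CPM in sham (2332 to 2553), 18016 on day 3, 2818 on day 7, 1502 on day 14 and 987 on day 28. On day 3 all 40 genes were at least 2-fold higher, against 8.48% of all genes, with a median log2 ratio of 2.88. By level, Ly6e led at 3723 CPM against 503 in sham, then Ifitm3 at 3292 against 770.3 and Bst2 at 1939 against 162. By ratio, the leaders were Irf7 at 49.6 (31.0 to 85.2), Oasl1 at 42.1 (16.4 to 155) and Irgm1 at 26.3 (12.1 to 71.7). On day 28, 14 of 24 genes were at least 2-fold lower than in sham, against 13.3% of all genes. All 24 were at 20 CPM or more in sham, so genes under 20 CPM on day 28 were compared through sham alone and had to be lower. Classical monocyte markers in this gate were 2997 CPM on day 3, against 906 in sham and 511 to 615 later, and their part in the level was not tested.

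**Figure D3:**
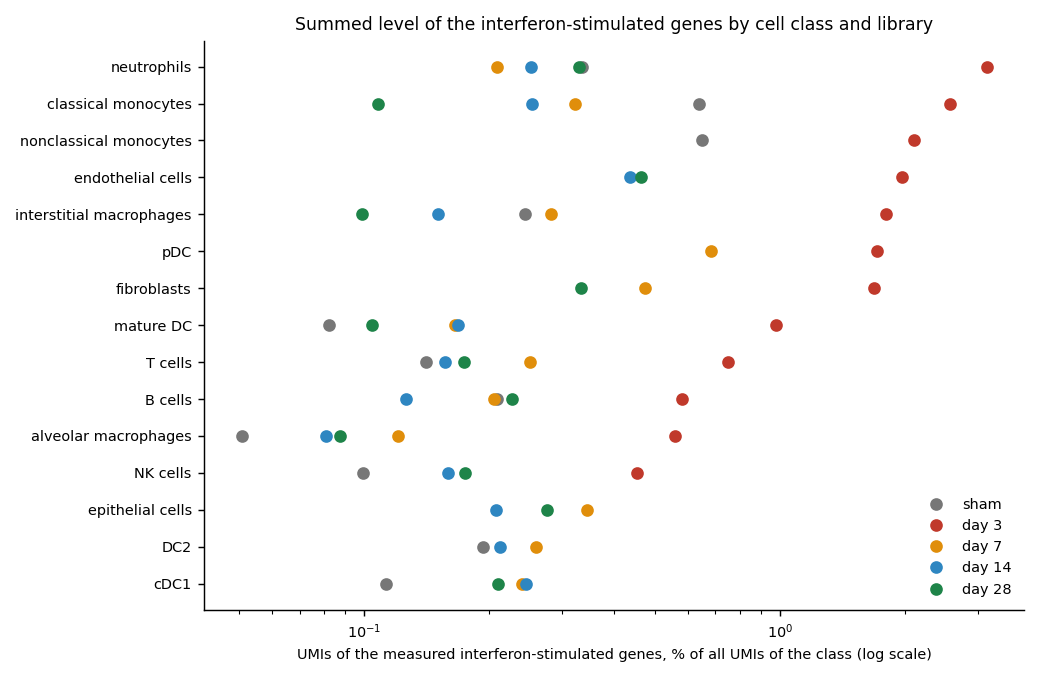
Summed level of the 40 genes as a share of the UMIs of each cell class (%, log axis), with 1 point per library, for classes of at least 50 cells. The day 3 point is the highest in each class that has one, and neutrophils on day 3 lie farthest right.

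In mature dendritic cells, which carry antigen to lymph nodes, the summed level was 824 CPM in sham, 9809.9 on day 3, 1653 on day 7, 1678 on day 14 and 1043 on day 28, and 38 of 38 genes were at least 2-fold higher on day 3, against 8.94% of all genes. Isg15 led at 1512 CPM against 16.7 in sham, followed by Ifitm3 at 1412 against 47.8 and Bst2 at 1048 against 146. Irf7 had the largest ratio, 163 (63.7 to 599.7) from 4 UMIs in sham, and Ifi47 and Isg20 followed at 95.8 (17.1 to 3795) and 95.2 (17.0 to 3772) from 1 UMI each. The sham gate held 52 cells, so that these intervals are wide.

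Conventional type 1 dendritic cells (cDC1), which present antigen to CD8 T cells, were too few on day 3 to be compared, with 35 cells and a summed level of 12691 CPM. In the other libraries it was 1128 CPM in sham, 2397 on day 7, 2453 on day 14 and 2096 on day 28. At least 2-fold higher were 16 of 21 genes on day 7, against 3.20% of all genes, 25 of 30 on day 14, against 7.77%, and 9 of 17 on day 28, against 5.72%. These counts were looked at after the values were seen. No more than 17 genes can have been at 20 CPM or more in sham, since 17 were compared on day 28. The others compared on day 7 and day 14 reached 20 CPM only through those libraries and so had to be higher there. Rsad2 in cDC1 had 2.99 CPM in sham, 10.9 on day 7, 85.4 on day 14 and 3.77 on day 28, whereas Ly6e had 477, 784, 221 and 1003 CPM. With day 3 left out of this ranking, Rsad2 was therefore highest on day 14, the library in which Ly6e was lowest.

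Lymphocytes had lower summed levels on day 3 than neutrophils and monocytes. In T cells the summed level was 1410.0 CPM in sham, 7519.7 on day 3, 2503 on day 7, 1565 on day 14 and 1742 on day 28, and 39 of 40 genes were at least 2-fold higher on day 3, against 6.48% of all genes. The exception was Ly6e, which at 906 CPM against 454 in sham was 1.99-fold higher (1.88 to 2.12) and was still the most abundant, before Bst2 at 783 against 72.9 and Isg15 at 513 against 38.3. Ifi44, with 0 UMIs in sham T cells, was at least 41.3-fold higher, Oasl2 was 35.1-fold higher (16.1 to 95.8) and Ifit3 27.5-fold higher (19.4 to 40.2).

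In B cells the summed level was 2089.5 CPM in sham and 5804 on day 3, with 34 of 37 genes at least 2-fold higher, against 3.72% of all genes. The exceptions were Ddx58, Gbp3 and Ly6e, and Ly6e in B cells was at 1857 CPM against 1529 in sham. Irf7 in B cells was at 468 CPM against 16.2 and Bst2 at 349.8 against 52.7. The largest ratios in B cells, those of Rsad2, Ifit1 and Ifi44, rested on 1 UMI each in sham and were 124 (22.0 to 4896), 98.2 (17.5 to 3894) and 95.3 (16.9 to 3778).

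In NK cells the summed level was 994 CPM in sham and 4530.3 on day 3, with 36 of 37 genes at least 2-fold higher, against 5.36% of all genes, and the exception was Ddx58 at a log2 ratio of 0.77. Ly6e led in NK cells at 517 CPM against 208, followed by Irf7 at 426 against 65.3 and Bst2 at 379 against 36.5. Oasl1, Ifit1 and Mx1 had the largest ratios in NK cells, 42.8 (7.59 to 1700.3), 26.3 (7.19 to 218) and 25.8 (4.54 to 1029), from 1 or 2 UMIs in sham.

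**Figure D4:**
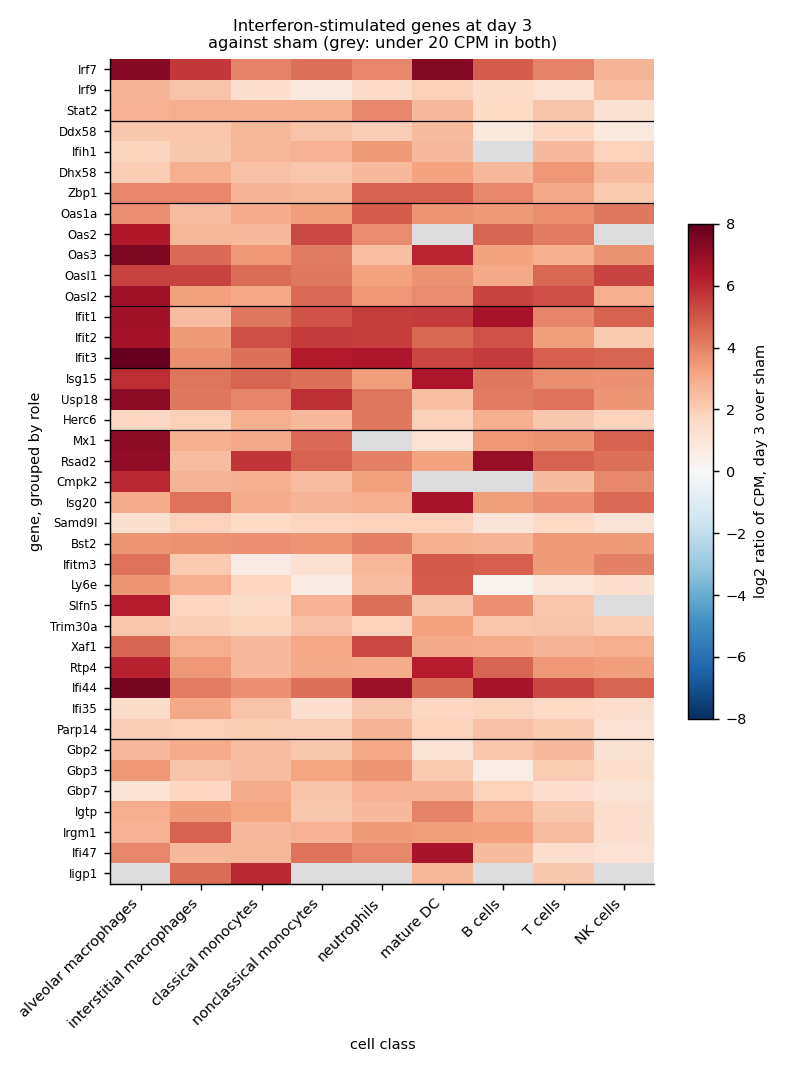
Log2 ratio of CPM on day 3 over sham for each gene (rows, grouped by role) in 9 cell classes (columns), on a scale from -8 (blue) to 8 (red), with grey where the gene was under 20 CPM in both libraries. Of 34 genes compared in all 9 classes, 29 were at least 2-fold higher in all 9, and 0 genes were at least 2-fold lower in any class. The matching shares of all genes were not counted. Where a gene reached 20 CPM only through day 3, it had to be higher there.

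Compared across classes on day 3, the genes were not highest in AMs. Among 12 classes of at least 50 cells, the highest level was in neutrophils for 20 of the 40 genes, in classical monocytes for 8, in endothelial cells for 5, in pDCs for 5, and in interstitial macrophages and nonclassical monocytes for 1 each. AMs had the lowest level of these 12 classes for 7 genes, Ifit3, Usp18, Herc6, Isg20, Samd9l, Ifi35 and Ifi47. Ifit3 was at 81.6 CPM in AMs against 2858 in neutrophils, and Isg20, an RNA exonuclease, at 21.7 against 715. Non-immune cells of day 3 were also high, with summed levels of 19644 CPM in endothelial cells and 16875 in fibroblasts, and pDCs were at 17092. Scaling by TMM in place of total UMIs moved the median day 3 to sham ratio of all genes by -0.18 to 0.16 (log2) within the classes compared with sham. That is small beside the ratios of most of these genes. It concerns ratios within a class only, and the effect of scaling on the order of classes was not tested.

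Type I and type III interferons were scarcely detected, whereas interferon gamma was measurable in lymphocytes. None of 12 listed ligand genes reached 20 CPM in AMs. Over all kept cells, Ifnb1 had 0 UMIs in sham, 82 on day 3, 12 on day 7 and 0 on day 14 and day 28, and 49 of the 82 were in classical monocytes. Of 11 UMIs of Ifnl2, a type III interferon, on day 3, 10 were in pDCs. Ifng, which encodes interferon gamma, had 124, 576, 223, 317 and 105 UMIs over the 5 libraries. Its level in NK cells was 94.2 CPM in sham (72.2 to 121) and 72.6 on day 3 (63.2 to 83.1), and in T cells 16.7 (12.2 to 22.4) and 22.0 (19.4 to 24.9), so that the day 3 and sham intervals of Ifng overlapped in both classes. Messages of secreted proteins made by cells outside the suspension were not measured.

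The pathway around these genes was followed in lists of non-members in AMs on day 3. Of 5 receptor genes compared, 0 passed 2-fold, with a median log2 ratio of 0.25. Of 13 genes of nucleic acid sensing, 3 were at least 2-fold higher and 0 lower, Adar at 54.2 CPM against 21.4, Irf5 at 48.8 against 19.7, and Samhd1 at 435 against 209. All genes compared had 4.58% higher, as given above. Irf5 reached 20 CPM only through day 3 and so had to be higher there.

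Of 48 other interferon-induced genes compared, 42 were at least 2-fold higher and 0 lower in AMs on day 3, with a median log2 ratio of 2.35. The largest ratios were those of Ifit3b, at 20.6 CPM against 0.0387, Ifit1bl1 at 28.1 against 0.0581, Oas1g at 29.6 against 0.252, Mnda at 164 against 1.60, Phf11b at 65.3 against 0.775 and Ms4a4c at 69.6 against 1.39. Each of these reached 20 CPM only through day 3 and so had to be higher there. How many of the 48 passed in this way was not counted, and the list was chosen with earlier results of these data known. The same list had 7 of 29 genes at least 2-fold higher on day 7 (1.98% of all genes), 6 of 26 on day 14 (3.13%) and 3 of 23 on day 28 (3.27%). All 5 interferon gamma targets compared that are not among the 40 genes were higher on day 3, Cxcl9, a chemokine for T cells, at 40.1 CPM against 2.84, Irgm2 at 22.3 against 2.88, and Irf1, Gbp2b and Fgl2. Of these, Cxcl9, Irgm2 and Gbp2b reached 20 CPM only through day 3 and so had to be higher there. Gbp2b in AMs was at 6.44 CPM in sham, 28.3 on day 3, 0.102 on day 7, 8.41 on day 14 and 0.0356 on day 28, and was close to 0 on day 7 and day 28 in T cells and neutrophils too. The mice were of mixed background, and whether the libraries differ in it was not tested.

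Over 59 points of cell class and library, the genes outside the list whose levels most resembled the mean of the 40 genes were Rnf213 (Pearson's r of log2(CPM + 10) 0.91), Ifit3b (0.91), Parp9 (0.87), Ogfr (0.84) and Adar (0.84). Among the 40 genes themselves, r ran from 0.95 for Ifit3 to 0.59 for Ly6e and 0.54 for Samd9l. Points of 1 library share its depth and handling, so r is a description. Rnf213, a giant ubiquitin ligase, was at 14.0 CPM in AMs of sham, 138 on day 3, 24.0 on day 7, 19.1 on day 14 and 15.5 on day 28.

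The reporter allowed 1 test that the choice of genes had not used. In each library, AMs with 2 or more UMIs of the added feature RFP, taken as tdT, out of 2000 were compared with AMs that had none, which asks whether AMs of labelled monocyte origin differ in these genes. Reporter-positive AMs made up 2.91% of AMs in sham (2.48 to 3.38), 4.07% on day 3, 2.30% on day 7, 14.0% on day 14 and 15.6% on day 28 of thinned cells. T cells, which should not be labelled, had 2.43%, 2.23%, 3.92%, 11.97% and 3.90% in the same order, so that only on day 28 did the share in AMs lie above that in T cells beyond both intervals. Positive AMs of the other libraries are thus not separated from background. Median UMIs before thinning were 17030.0 in AMs and 5530.0 in T cells of sham. The comparison used 162, 26, 37, 181 and 429 positive cells.

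None of 37 genes compared was called between reporter-positive and reporter-negative AMs (edgeR quasi-likelihood test with library as a block, Benjamini-Hochberg over 10850 genes, threshold 0.05), where 38 genes (0.350%) were called in all. At an unadjusted p under 0.05 there were 10 in edgeR, against 7.85% of all genes. DESeq2 also called 0, with 5 at an unadjusted p under 0.05, against 4.99% of all genes. The log2 differences of the 37 genes ran from -1.06 to 0.72, with a median of -0.05. Rsad2 had the smallest adjusted p in edgeR, 0.241, with a log2 difference of -0.99 and a higher level in positive cells in 1 of 5 libraries. On day 14, Rsad2 was at 15.5 CPM in negative and 2.90 in positive AMs, and on day 3 at 133 and 102. Ifit1 differed by -0.97 (adjusted p in edgeR 0.262) and Cmpk2 by -1.06 (0.297), each higher in positive cells in 1 of 5 libraries. Ifitm3 differed by 0.72 (adjusted p in edgeR 0.520) and was higher in positive cells in 4 of 5 libraries.

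The summed level in AMs was close in both states on day 14 and day 28. Positive AMs were lower on day 3 and day 7 and higher in sham. The level was 498 CPM in negative and 571 in positive AMs of sham, 5623 and 4647 on day 3, 1219 and 981 on day 7, 819 and 820.3 on day 14, and 881 and 859 on day 28. No interval was computed for these sums. The day 3 level of positive AMs was thus far above that of sham AMs of either state. S100a8 in the positive cells was 435, 792 and 453 CPM at sham, day 3 and day 7 against 103, 117 and 168 in negative cells, and its part in the differences was not tested. In interstitial macrophages, with 4 libraries, 0 of 40 genes were called in edgeR, against 0.0262% of 11444 genes. An unadjusted p under 0.05 was found for 4, against 7.41% of all genes. The log2 differences ran from -0.55 to 0.10, and 5 of the 40 were above 0. Their median was -0.11, against 0.005 over all genes. The summed level was 17796 CPM in negative and 18843 in positive cells on day 3, and 2893 and 2416 on day 7. On day 14 it was 1764 and 1389, and on day 28 it was 989 and 970. A shift of the genes as a set was not tested. DESeq2 was not run on interstitial macrophages.

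**Figure D5:**
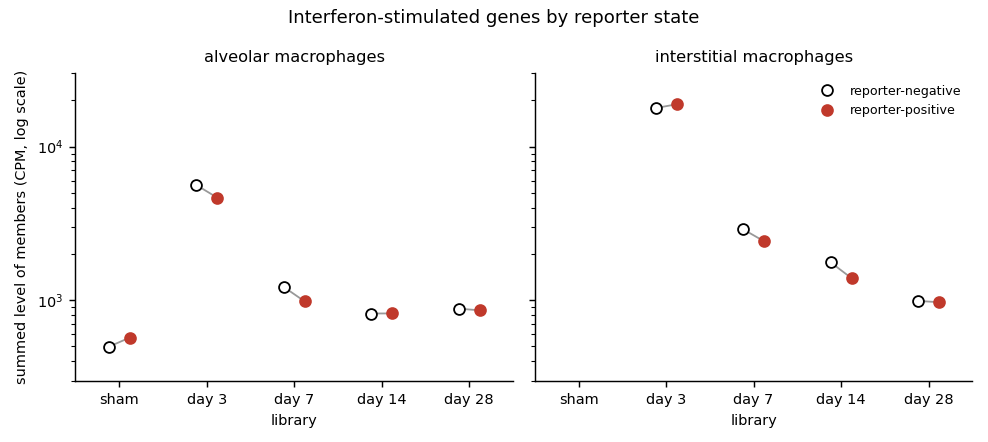
Summed level of the 40 genes (CPM, log axis) in reporter-negative (open) and reporter-positive (filled) cells of each library, joined by a line, in AMs and interstitial macrophages. Day 3 stands apart in both states, at 5623 and 4647 CPM in AMs. The gap within a pair is smaller than that between day 3 and any other library.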

How the data were processed

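Lung cells in 5 libraries were measured by 3′ scRNA-seq with UMIs. The authors deposited raw UMI counts per gene and barcode, made with Cell Ranger 6.0.0 on mm10 according to the submitters' processing notes, while the matrix headers give software version 3.1.0. The counts were not normalized, and the deposited matrices held no barcode under 500 UMIs, or under 4624 in the day 7 library. From these counts, barcodes were kept that had 300 to 8000 genes, 800 to 60000 UMIs and a mitochondrial share under 15%. Doublets were kept, and removing those with the highest Scrublet scores (0.8% per 1000 barcodes) was an alternative.

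Each cell was placed in the class whose marker genes had the highest mean standardized score, at a score of at least 0.25 and a lead of 0.1 over the next class, and classes of under 50 cells were not compared. UMIs were summed by class and library and given as CPM of all UMIs of the class. Levels carry exact Poisson intervals, ratios and shares exact binomial intervals (95%), and a gene with 0 UMIs in sham was set to a floor of 3 counts. A UMI marks 1 captured 3′ end, so levels were not divided by gene length. Reporter states were compared with edgeR 4.0.16 (quasi-likelihood test, TMM, low-count filter, library as a block, at least 20 cells per state) in R 4.3.3, with DESeq2 1.42.0 as an alternative, and the fit was tested on simulated data. Scrublet and the clustering ran in scanpy 1.11.5 with leidenalg 0.10.2, intervals in scipy 1.17.1, tables in pandas 2.3.3 with numpy 2.4.6, and figures in matplotlib 3.10.9, under Python 3.11.15.

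The 41 genes, the roles and the lists were chosen with earlier results of these data known. In AMs, genes that reached 20 CPM were named in full in order of their day 3 ratio, with at most 5 per role. In other classes, the 3 highest levels and the 3 largest ratios at day 3 were named, together with at most 6 genes per list and the 5 most similar other genes. Promoters are from RefSeq (GRCm38.p6), and 10 of the 41 genes had no entry. Mx2 was not analysed here, and the values of 1 list of pathway genes are not reported here. The alternatives were another minimum level or none, a pseudocount of 10 CPM, TMM scaling, per-cell means, clusters in place of gates, a stricter gate, a mitochondrial limit of 10%, the lowest day 7 UMI count as a minimum, other reporter limits, no library block and 1 library left out.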

Additional observations from a re-analysis of the deposited data

How the results depend on the processing

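With 1 library per time point, no difference between times has a replicate check, and mice, their genetic background, handling and time cannot be told apart. No paired analysis was possible because each group has 1 library. In AMs on day 3, the number of genes at least 2-fold higher was 28 to 40 under the 10 alternatives, 28 of 28 genes compared at a minimum of 50 CPM. The log2 ratio of the summed level was 3.46 and was 3.43 with doublets removed, 3.61 with clusters in place of gates, 3.27 as a mean of per-cell CPM, 3.43 with a stricter gate and 3.50 with TMM scaling. The counts after day 3 turned on the minimum level. On day 7 the count of 5 genes was 24 with no minimum, 1 at 50 CPM and 1 on CPM + 10. On day 14 the count of 2 was 20 with no minimum, 0 at 50 CPM, 0 on CPM + 10, 1 as a mean of per-cell CPM and 1 with TMM scaling. On day 28 the count of 1 was 14 with no minimum, 2 with clusters and 2 as a mean of per-cell CPM. In the 8 other classes the count on day 3 stayed within 1.5 times that reported, from 25 of the genes in B cells to 40 in interstitial macrophages. Between reporter states 0 of 37 genes were called, where 28 of all 10850 genes were higher and 10 lower. At a limit of 3 UMIs, with 3 libraries, 1 of 37 was called (Ifit1), where 100 of all 11200 genes were higher and 103 lower. With no low-count filter 4 of 40 were called (Ifitm3, Rsad2, Iigp1 and Ifit1), where 157 of all 19492 genes were higher and 127 lower. Leaving out 1 library gave 0 to 1. Without day 14 Irf7 was called, where 16 of all 10894 genes were higher and 7 lower. The cause of these changes was not tested. The median difference of these genes between reporter states, -0.05 on the log2 scale, was 0.08 at a limit of 3 UMIs, 0.02 with the reporter called on all UMIs and 0.0047 without day 7, so its sign turned. Depth limits single genes most in sham, where Ifit3, Usp18 and Mx1 rest on 27, 22 and 20 UMIs in AMs.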

Other observations

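Gbp2b, a GTPase outside the list of 40 genes, had a pattern over the libraries unlike that of its relatives Gbp2, Gbp3 and Gbp7. In T cells Gbp2b was at 10.4 CPM in sham, 47.4 on day 3, 0.376 on day 7, 17.7 on day 14 and 0.450 on day 28. In neutrophils it was at 23.9, 169, 0, 28.5 and 0 CPM in the same order. Over all kept cells it was at 7.34, 54.0, 0.420, 10.3 and 0.0832 CPM. The day 7 and day 28 libraries were therefore close to 0 in each of these, whereas Gbp2 in AMs was above its sham level in both. The mice were of mixed C57BL6/129 background, and whether the libraries differ in it was not tested. This gene was looked at after its values were seen.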
